A study of Arabidopsis thaliana with 42 samples.

Results

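Transcripts of 8 Arabidopsis thaliana genes around the growth regulators PIF4 and PIF5 were followed in whole seedlings of 19 natural accessions. The genes were taken by their locus identifiers, 8 of 33770 nuclear genes and genes newly called by the authors: PIF4 (AT2G43010), PIF5 (AT3G59060), HFR1 (AT1G02340), PIL1 (AT2G46970), ATHB2 (AT4G16780), IAA29 (AT4G32280), XTR7 (AT4G14130) and YUC8 (AT4G28720). All 19 accessions are wild-type founder lines of the MAGIC mapping population: Col-0, Bur-0, Can-0, Ct-1, Ler-0, Edi-0, Hi-0, Kn-0, Po-0, Mt-0, No-0, Oy-0, Wil-2, Rsch-4, Sf-2, Tsu-0, Zu-0, Ws-0 and Wu-0. Every accession was sampled by 2 biological libraries, which makes 38, and none was treated. After 5 days of cold (4 C) the seeds germinated on soil, and seedlings of approximately 11 days had seen long days of 16 h light and 8 h dark at 20 C. The sources used here state neither the harvest hour nor whether replicates were grown apart, so p-values measure the spread between these libraries, which may be technical. Levels are given as RPKM, read density on the exon model scaled to the mapped reads of the library, as deposited by the authors.

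PIF4 and PIF5 are basic helix-loop-helix (bHLH) transcription factors that promote elongation of hypocotyls and petioles. Active phytochrome B binds them and leads to their breakdown or inactivation in light, and the loss of active phytochrome under a leaf canopy lets them accumulate. Their transcription is held down in the evening by the evening complex of ELF3, ELF4 and LUX, and rises again towards dawn. HFR1 is an atypical bHLH protein that binds PIF4 and PIF5 and keeps them off DNA. PIL1 is a bHLH protein and ATHB2 a homeodomain-leucine zipper (HD-Zip) II factor, and the transcripts of both rise within minutes to hours of shade. IAA29 is an Aux/IAA repressor of auxin response, XTR7 a xyloglucan-modifying cell wall enzyme (also XTH15) and YUC8 a flavin monooxygenase that makes auxin.

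PIFs bind the G-box (CACGTG) and the related PBE-box (CACATG), so the sequence upstream of the genes was searched on both strands in the TAIR10.1 genome, which has the nuclear assembly of the TAIR10 build named in the labels. The 250 bases before the PIF5 start, chr3:21830838-21831087 on the minus strand, are shown because PIF5 was the member with the clearest differences between accessions and held the only G-box among the members in a window of 300 bases around the start. The capitals mark that G-box, 165 bases before the start.
PIF5 upstream: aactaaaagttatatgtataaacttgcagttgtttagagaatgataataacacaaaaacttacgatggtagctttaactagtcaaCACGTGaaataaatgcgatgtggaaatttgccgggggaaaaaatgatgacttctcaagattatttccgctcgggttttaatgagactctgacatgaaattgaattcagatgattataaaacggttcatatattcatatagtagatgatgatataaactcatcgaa
In windows of that size, 250 bases before to 50 after the start, 7.68% of 27443 genes held a G-box. Over 2000 bases upstream, a longer stretch chosen after seeing the data, 5 of the 8 members held a G-box against 23.8% of 27440 genes. HFR1 and YUC8 held 2 each, PIL1 held 3 and XTR7 held 1, and these are shown as windows of 30 bases, 5′ to 3′ on the strand of the gene, with the G-box in capitals.
HFR1, 1419 bases before the start, chr1:469282-469311, minus strand: tcacgagggcatCACGTGaacacgcctttt
HFR1, 1000 bases before the start, chr1:468863-468892, minus strand: gagcccacaaccCACGTGggattttggata
PIL1, 1222 bases before the start, chr2:19299063-19299092, minus strand: tcacgcggcattCACGTGaagtgcacgtga
PIL1, 1211 bases before the start, chr2:19299052-19299081, minus strand: tcacgtgaagtgCACGTGaacttggccaaa
PIL1, 1093 bases before the start, chr2:19298934-19298963, minus strand: gttctttccgctCACGTGggccttttgtgc
XTR7, 1747 bases before the start, chr4:8140122-8140151, minus strand: aggtcacagtcaCACGTGaaggaggtacga
YUC8, 484 bases before the start, chr4:14192073-14192102, plus strand: cctcatcctctcCACGTGgcttccattcca
YUC8, 448 bases before the start, chr4:14192109-14192138, plus strand: ctttttcttcccCACGTGgcttcctctcgt
The first pair of PIL1 windows overlap, and the pair in YUC8 stand close together. PIF4, ATHB2 and IAA29 had no such letters in this window. A PBE-box was found in 4 of the 8 members, PIF4, HFR1, IAA29 and YUC8, against 61.0% of all genes. The LUX site, bound by the DNA-binding subunit of the evening complex, was searched only as the exact letters GATACG, and other forms were not searched. This form was found in 1 of the 8, PIF5, 1433 bases before the start, against 30.4% of all genes. It is shown with the site, here on the opposite strand, in capitals.
PIF5, 1433 bases before the start, chr3:21832253-21832282, minus strand: actaaactgggcCGTATCttaggcccaata
The evening element (AAAATATCT), bound by morning clock factors, was found in PIL1 and YUC8, 2 of the 8, against 11.6% of all genes. These matches are descriptions of the reference sequence of Col-0 and were not measured as bound sites.

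The genes lie at chr2:17886101-17889087 (PIF4, plus strand), chr3:21827905-21830837 (PIF5, minus), chr1:465616-467880 (HFR1, minus), chr2:19295431-19297858 (PIL1, minus), chr4:9449114-9450905 (ATHB2, plus), chr4:15583332-15584903 (IAA29, plus), chr4:8137020-8138392 (XTR7, minus) and chr4:14192569-14194302 (YUC8, plus). XTR7 overlaps AT4G14120 on the opposite strand by 382 bases. The sources used here do not say whether the authors' counting used strand, so reads from that overlap may not be told apart.

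Estimated depth ran from 1230000 to 4910000 reads per library with a median of 3620000, and 17055 to 17846 genes reached 1 RPKM. Depth was estimated from the low values of each library, at the commonest size that 1 read would give on the annotated exon length, and 3 reads on 1500 bases of exon were worth 0.407 to 1.63 RPKM, for counting error only. Labels put the accessions on 5 pairs of sequencing lanes in alphabetical order. These were lanes 1 and 2 (Col-0, Bur-0, Can-0, Ct-1), 3 and 4 (Ler-0, Edi-0, Hi-0, Kn-0), 5 and 6 (Po-0, Mt-0, No-0, Oy-0) and 7 and 8 (Wil-2, Rsch-4, Sf-2, Tsu-0) of run 38, and lanes 1 and 2 of run 39 (Zu-0, Ws-0, Wu-0). A difference between accessions of different lane pairs and a difference between the pairs cannot be told apart. The libraries of No-0 stood apart from each other, with the morning clock gene CCA1 at 23.3 and 2.92 RPKM, so member contrasts and calls that change without them are given beside the result. Green shoot markers were high in every library: the Rubisco small subunit RBCS1A at 15200 to 24200 RPKM, and the summed level of 4 such markers at 19900 to 32200. The root hair genes EXPA7 and LRX1 were at 0 in 34 and 31 of 38 libraries, and the 3 root markers summed to 81.1 to 448 RPKM through PYK10, an abundant beta-glucosidase. The summed level of 3 flower markers was 0.154 to 28.6 RPKM, nearly all SEP3, and of 2 seed storage genes 0 to 17.5. Their part in the results was not tested.

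The abundant members were PIF4 and PIF5, and they differed in how much they varied. PIF4 lay between 47.5 and 87.2 RPKM in the 38 libraries, with a median of 69.9, and the accession means spanned 1.55-fold. PIF5 lay between 24.5 and 80.2 RPKM, with a median of 54.3, and its means spanned 3.16-fold. Between accession means the coefficient of variation was 11.7% for PIF4 and 25.2% for PIF5. ATHB2 was present in every library at 1.39 to 9.63 RPKM. The remaining 5 members were low, with medians of 1.47 (HFR1), 0.408 (PIL1), 1.47 (IAA29), 0.886 (XTR7) and 0.298 RPKM (YUC8). In bulk seedlings, fewer cells of a type and less RNA per cell cannot be told apart.

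Whether the 19 accessions differed was tested for each gene by limma's F test on log2(RPKM + 1), with Benjamini-Hochberg adjustment over all genes tested and a threshold of 0.05. Of 20453 genes, 11274 (55.1%) passed. Of the 8 members, 7 entered the test and 4 of these passed, a share near that of all genes. They were PIF5 (adjusted p = 3.923e-06), PIF4 (0.002867), ATHB2 (0.02579) and XTR7 (0.04134). IAA29 (0.1389), HFR1 (0.197) and PIL1 (0.3234) did not pass. YUC8 reached 1 RPKM in 1 library and was not tested with the others; in the fit without a filter on low values its adjusted p was 0.752. The log2 span between highest and lowest accession had a median of 1.62 over the 7 members, 1.00 over all genes tested and 1.23 over the genes that passed. Of the members that passed, PIF4 spanned 0.62, PIF5 1.62, ATHB2 1.77 and XTR7 1.94. HFR1, PIL1 and IAA29, which did not pass, spanned 1.52, 1.02 and 1.89, and the spans of low members include counting error. The difference in medians was not tested.

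PIF5 was highest in Kn-0 at 78.5 ± 2.4 RPKM (SD, n = 2) and lowest in Zu-0 at 24.9 ± 0.452. In replicates 1 and 2 it stood at 78.4 and 68.3 RPKM in Edi-0, 53.0 and 55.1 in Hi-0, 76.8 and 80.2 in Kn-0, and 68.3 and 65.1 in Ler-0. PIF5 was at 61.1 and 68.6 RPKM in Mt-0, 64.9 and 37.5 in No-0, 68.2 and 56.8 in Oy-0, and 68.2 and 62.3 in Po-0. These accessions held most of the high values, and Hi-0 and the second libraries of No-0 and Oy-0 were the low ones among them. Levels were intermediate and alike in the lane pair of Col-0, at 51.6 and 61.1 RPKM in Bur-0, 51.6 and 51.9 in Can-0, 50.8 and 56.5 in Col-0, and 58.6 and 53.4 in Ct-1. PIF5 was at 50.8 and 36.2 RPKM in Rsch-4, 43.2 and 41.5 in Sf-2, 39.4 and 52.9 in Tsu-0, and 62.8 and 71.3 in Wil-2. Wil-2 stood above the other accessions of its lane pair in both libraries. The lowest group was Ws-0 at 35.1 and 35.9 RPKM, Wu-0 at 41.1 and 37.4, and Zu-0 at 24.5 and 25.2. Both libraries of Zu-0 lay below every other library of the 38. Along the order of accession means, 15 of 18 neighbours overlapped in their replicates, and the gaps were those below Sf-2, Wu-0 and Ws-0.

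**Figure D1:**
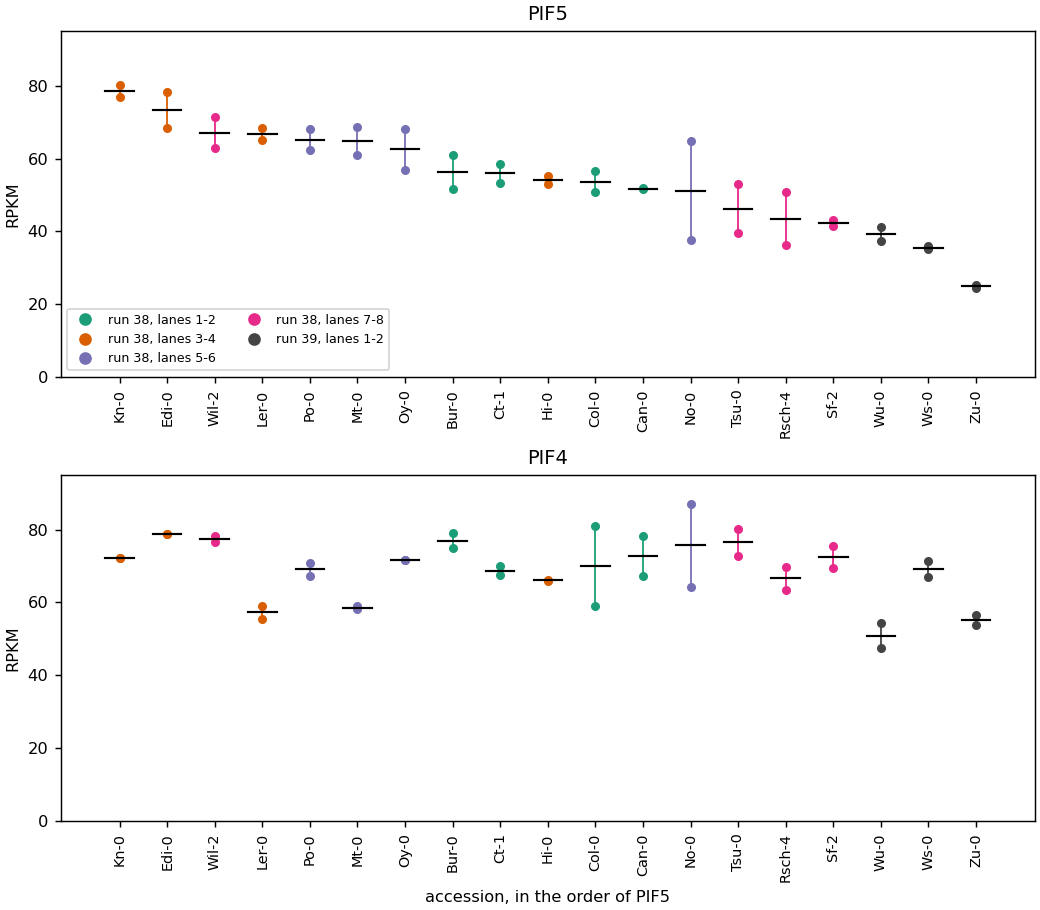
Levels of PIF5 (top) and PIF4 (bottom) in RPKM for each of 19 accessions, ordered by PIF5. Points are the 2 libraries, black bars the mean and colours the lane pairs; PIF5 steps down from 78.5 RPKM in Kn-0 to 24.9 in Zu-0, while PIF4 stays between 50.9 and 78.8.

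PIF4 was highest in Edi-0 at 78.8 ± 0.16 RPKM (SD, n = 2) and lowest in Wu-0 at 50.9 ± 4.78. Its replicates stood at 75 and 79 RPKM in Bur-0, 67.4 and 78.4 in Can-0, 59.1 and 81.1 in Col-0, and 67.5 and 69.9 in Ct-1. PIF4 was at 78.7 and 78.9 RPKM in Edi-0, 66.3 and 65.9 in Hi-0, 72.3 and 72.3 in Kn-0, and 59.1 and 55.5 in Ler-0. Replicates in that lane pair were close together, and Ler-0 was the low accession. PIF4 was at 59.0 and 58.1 RPKM in Mt-0, 87.2 and 64.2 in No-0, 71.7 and 71.8 in Oy-0, and 70.8 and 67.4 in Po-0. PIF4 stood at 69.8 and 63.3 RPKM in Rsch-4, 69.5 and 75.4 in Sf-2, 72.8 and 80.2 in Tsu-0, and 76.7 and 78.4 in Wil-2. Unlike PIF5, it was not low in Sf-2 or Tsu-0. In the last lane pair PIF4 was at 71.3 and 67.0 RPKM in Ws-0, 54.3 and 47.5 in Wu-0, and 56.6 and 53.9 in Zu-0. Mt-0, Ler-0, Zu-0 and Wu-0 formed a low end that lay below both libraries of all other accessions except the first of Col-0, at 59.1 RPKM. Its gaps in the order were those below Edi-0, Kn-0 and Hi-0, and 15 of 18 neighbours overlapped.

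The PIF5 to PIF4 ratio of RPKM ranged from 0.45 in Zu-0 and 0.514 in Ws-0 to 1.11 in Mt-0 and 1.16 in Ler-0. PIF5 exceeded PIF4 in both libraries in Kn-0, Mt-0 and Ler-0. Mt-0 and Ler-0 combined a low PIF4 with a high PIF5, whereas Tsu-0 and Sf-2 combined a PIF4 above 69 RPKM with ratios of 0.6 and 0.586. Across the 19 accession means the correlation of PIF4 with PIF5 was Pearson r = 0.41 and Spearman rho = 0.32, with permutation p-values of 0.0826 and 0.181 (adjusted over 68 gene pairs 0.401 and 0.77). Without Wu-0 and Zu-0, the accessions farthest from the median of PIF4, r was -0.05.

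Each of the other 18 accessions was then set against Col-0, from which the reference genome was made, in the same limma fit with adjustment within each contrast. These 18 contrasts share the Col-0 libraries. Of 126 contrasts of a tested member with Col-0, 4 (3.17%) passed, and in all 4 the member was lower than in Col-0. The share of all genes called in either direction was 8.57% in Bur-0, 9.18% in Can-0, 6.39% in Ct-1, 7.08% in Edi-0, 6.55% in Hi-0 and 6.04% in Kn-0. It was 8.69% in Ler-0, 6.85% in Mt-0, 7.49% in No-0, 6.66% in Oy-0, 4.79% in Po-0 and 11.6% in Rsch-4. In the others it was 11.1% in Sf-2, 11.1% in Tsu-0, 10.2% in Wil-2, 12.3% in Ws-0, 8.90% in Wu-0 and 13.6% in Zu-0. The 4 calls were in 3 accessions: 2 of the 7 members tested in Zu-0 and 1 of 7 in each of Ws-0 and Wu-0. With 7 members a contrast, these shares are too coarse to set against those of all genes. The 3 accessions are all those of run 39, whereas Col-0 was on run 38, and no accession of run 38 had a call. The calls thus cannot be told apart from a difference between the runs or lane pairs.

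PIF5 fell by 1.08 on the log2 scale in Zu-0 (SE 0.177, adjusted p = 0.0001266), and the call held with each of the 38 libraries left out in turn. In Ws-0 PIF5 fell by 0.58 (SE 0.177, adjusted p = 0.03145). That call ended without Col-0 replicate 1 (log2 difference -0.66, adjusted p = 0.06598) or 2 (-0.51, 0.2093) and without Ws-0 replicate 1 (-0.57, 0.0994) or 2 (-0.60, 0.1238). PIF4 fell by 0.44 in Wu-0 (SE 0.123, adjusted p = 0.02459). Without Col-0 replicate 2, the higher PIF4 library of that accession, the difference was -0.21 (adjusted p = 0.5166), and without Wu-0 replicate 2 it was -0.35 (0.2064). ATHB2 fell by 1.23 in Zu-0 (SE 0.361, adjusted p = 0.02224), and that call ended without Col-0 replicate 2 (-0.97, adjusted p = 0.2385) or Zu-0 replicate 1 (-1.003, 0.1916). Both Zu-0 libraries were sequenced on lane 1 of run 39. Leaving out No-0 altogether raised the count of member contrasts called from 4 to 8, with 2 for PIF4, 4 for PIF5 and 1 for HFR1. Leaving out only No-0 replicate 1 raised it to 9, only No-0 replicate 2 to 8, and leaving out only Col-0 replicate 2 lowered it to 1. No contrast of HFR1, PIL1, IAA29 or XTR7 passed, and their smallest adjusted p-values were 0.121, 0.163, 0.251 and 0.154. Without Rsch-4 replicate 1, 2 contrasts of XTR7 passed, and without its replicate 2, 1 did.

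**Figure D2:**
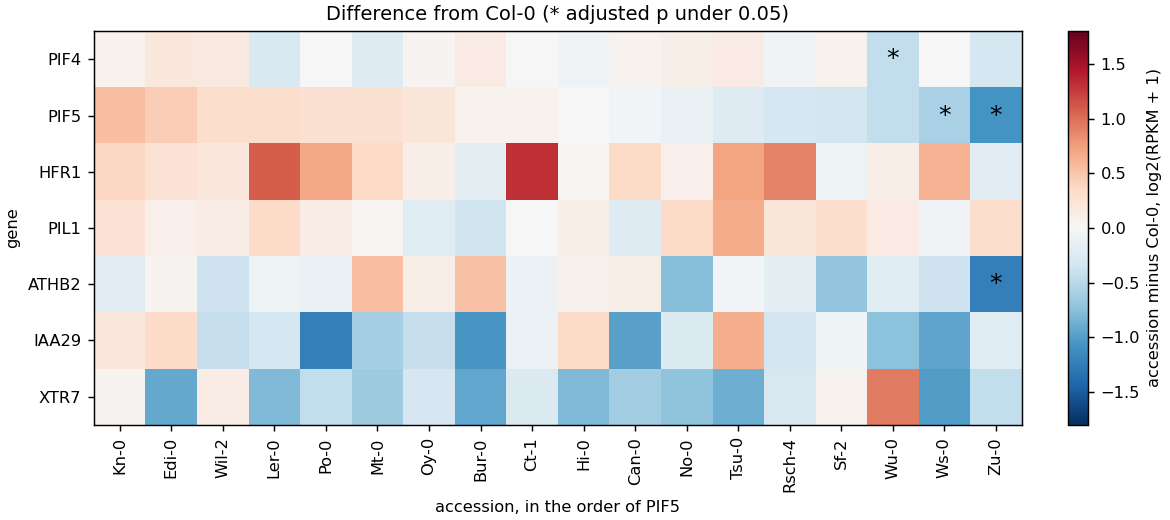
Difference of each accession from Col-0 on the log2(RPKM + 1) scale for the 7 members tested, from blue (lower) to red (higher), with accessions ordered by PIF5. Stars mark the 4 contrasts with an adjusted p under 0.05: PIF4 in Wu-0, PIF5 in Ws-0 and Zu-0, and ATHB2 in Zu-0. These 3 accessions were on run 39 and Col-0 on run 38.

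Differences were also tested among the accessions of each lane pair, with each pair fitted alone. PIF4 (adjusted p = 0.01094) and PIF5 (0.02524) both differed among Ler-0, Edi-0, Hi-0 and Kn-0, where 19% of genes passed limma's F test. PIF5 differed among Ws-0, Wu-0 and Zu-0 (adjusted p = 0.03999), where 3.57% of genes passed. No member passed among Col-0, Bur-0, Can-0 and Ct-1 (13.2% of genes), among Po-0, Mt-0, No-0 and Oy-0 (3.73%) or among Wil-2, Rsch-4, Sf-2 and Tsu-0 (6.32%). Counted as contrasts in the fit of all 38 libraries, the members' calls within lane pairs came to 5 instead of 3. Of the variance of PIF5 on the log2 scale, 65% lay between lane pairs, 24.6% between accessions of the same pair and 10.4% between replicates. The medians of these shares over all genes were 19.9%, 46.8% and 28.8%, and PIF4 had 32.2%, 47.7% and 20.2%. PIF5 thus had a larger share between lane pairs than the median over genes, and the part of the lane pairs in that share was not tested.

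HFR1, the inhibitor that pairs with PIF4 and PIF5, had a mean of 3.93 ± 0.517 RPKM (SD, n = 2) in Ct-1 and 0.714 ± 0.0155 in Zu-0. Both libraries of Ct-1 (4.29 and 3.56 RPKM) lay above both biological libraries of Col-0 (1.01 and 0.941), but that contrast was not called (adjusted p = 0.1213, limma). The 4 technical libraries of Col-0 held 2.73 to 3.65 RPKM, which reaches the level of Ct-1. Ler-0 held 2.32 and 4.34 RPKM, Rsch-4 2.39 and 2.94, and Tsu-0 1.03 and 4.16. Replicates were often far apart, as in Tsu-0 and in No-0 with 3.42 and 0 RPKM, and all 18 neighbours in the order overlapped. A median library held an estimated 8.47 HFR1 reads. The F test was not passed (adjusted p = 0.197), but it was without No-0 (0.02877) and without either No-0 replicate 1 (0.01115) or 2 (0.02382) alone.

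ATHB2 was the best measured of the shade-induced members, at an estimated 27.8 reads in a median library. It was highest in Mt-0 (9.37 and 9.01 RPKM) and Bur-0 (9.63 and 8.65), and both lay above every library of the other accessions. In lane pair order, ATHB2 stood at 6.57 and 6.59 RPKM in Can-0, 4.85 and 7.45 in Col-0, 4.98 and 6.07 in Ct-1, 6.62 and 5.99 in Edi-0, and 8.25 and 4.9 in Hi-0. It was at 5.55 and 4.72 RPKM in Kn-0, 5.79 and 5.4 in Ler-0, 6.19 and 1.39 in No-0, 5.37 and 8.0 in Oy-0, and 8.11 and 3.62 in Po-0. These libraries largely overlapped, and the second of No-0 was the lowest of all 38. ATHB2 was at 6.58 and 4.21 RPKM in Rsch-4, 3.58 and 3.0 in Sf-2, 6.06 and 5.5 in Tsu-0, and 4.56 and 4.26 in Wil-2. In the last pair it was at 4.06 and 4.81 RPKM in Ws-0, 6.56 and 3.81 in Wu-0, and 1.55 and 2.51 in Zu-0. The low end was thus Sf-2 and Zu-0, with the No-0 library beside them. The F call (adjusted p = 0.02579) ended without Bur-0 replicate 1 (0.05249), Mt-0 replicate 1 (0.0511) or Zu-0 replicate 1 (0.1019), and with no filter on low values (0.07269).

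IAA29, the Aux/IAA member, had its highest mean in Tsu-0, where the libraries held 2.28 and 6.5 RPKM. Its lowest were Po-0 (0 and 0.802 RPKM), Bur-0 (0.271 and 0.828) and Can-0 (0.536 and 0.649). Edi-0 held 1.88 and 4.49 RPKM, Hi-0 3.75 and 2.32, and Col-0 1.27 and 3.34. All 18 neighbours overlapped, and the estimated median was 6.47 reads. PIL1 stayed at or under 1.27 RPKM and was at 0 in 6 libraries, both of Bur-0 among them. It had an estimated median of 2.25 reads, and all 18 neighbours in its order overlapped. It did not pass limma's F test (adjusted p = 0.3234), and the part of depth in that was not tested. Only Tsu-0 replicate 1 (1.27) and Sf-2 replicate 2 (1.15) reached 1 RPKM. Tsu-0 (1.04 ± 0.327 RPKM, SD, n = 2) was its highest accession.

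XTR7, the cell wall enzyme, stood apart in Wu-0, at 4.33 and 3.74 RPKM. Every other accession had both libraries at or under 2.15 RPKM except Rsch-4, whose libraries held 3.62 and 0. The lowest was Ws-0 with 0.705 and 0 RPKM. Col-0 held 1.97 and 1.33 RPKM. XTR7 was just past the F test (adjusted p = 0.04134), and the call ended without either Wu-0 replicate 1 (0.1451) or 2 (0.1145), as it did for 25 of the 38 libraries left out singly. It also ended with a pseudocount of 0.1 (0.2269) or 0.5 (0.07391), with no filter on low values (0.1033) and in a permutation F test (p = 0.0548, not adjusted). The opposite-strand neighbour AT4G14120 was at 5.8 and 4.5 RPKM in Wu-0 and at 1.29 and 3.49 in Rsch-4; its part in the XTR7 values was not tested. YUC8, the auxin synthesis enzyme, was at 0 in 9 libraries and had its highest value, 1.03 RPKM, in Rsch-4 replicate 1. Its estimated median was 2.07 reads, and all 18 neighbours in its order of accessions overlapped.

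**Figure D3:**
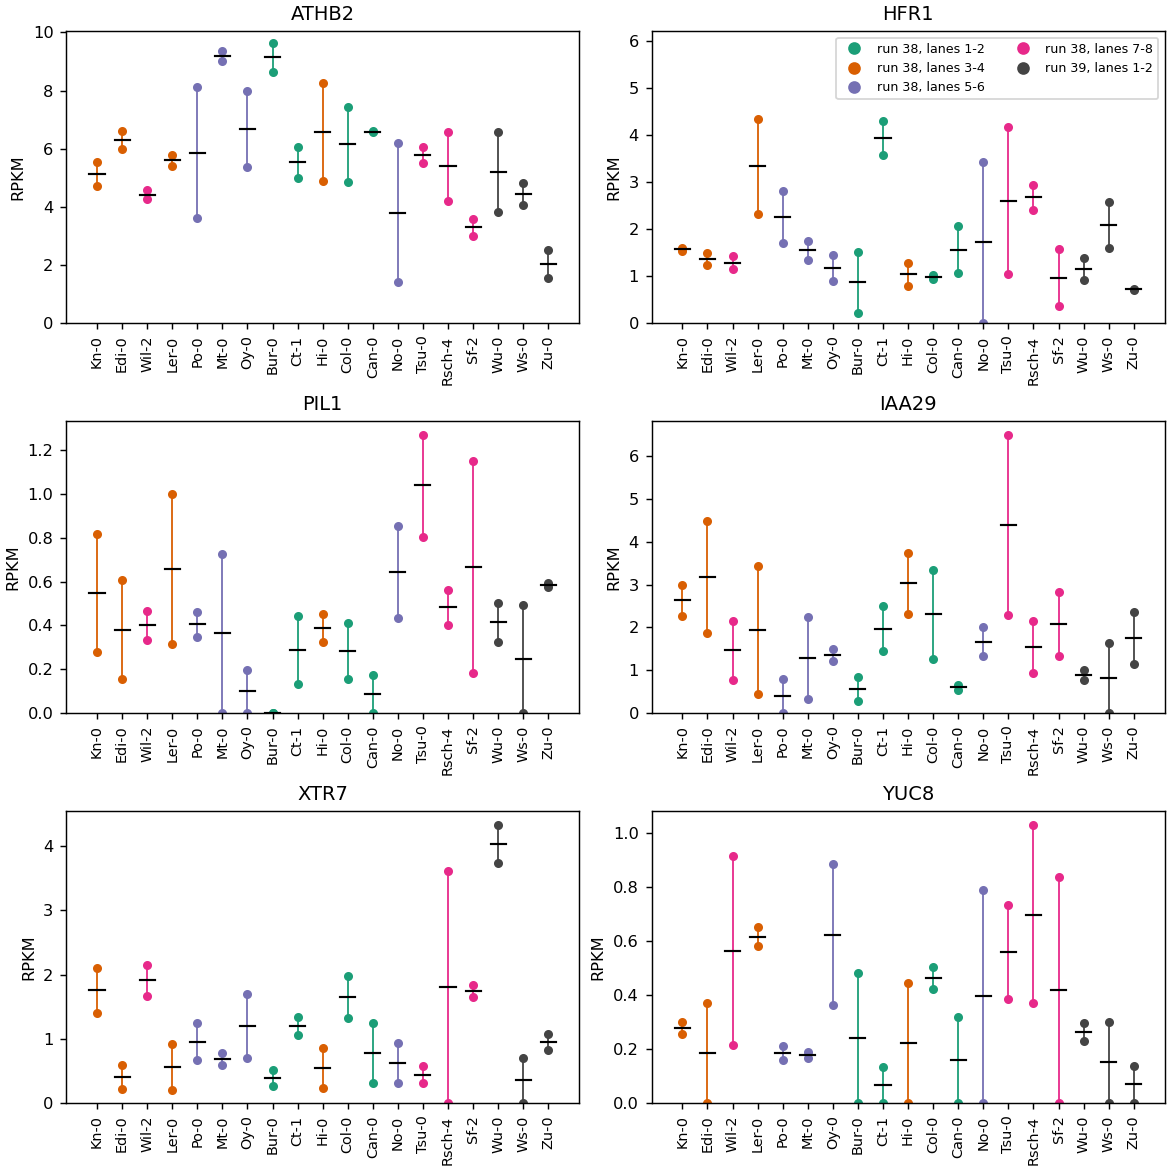
Levels in RPKM of the 6 members other than PIF4 and PIF5 in each accession, ordered by PIF5, with the 2 libraries as points, the mean as a black bar and lane pairs in colour. Axes differ between panels; ATHB2 peaks in Mt-0 and Bur-0, XTR7 in Wu-0, and the replicates of HFR1, PIL1, IAA29 and YUC8 are often as far apart as the accessions.

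The 4 technical libraries of Col-0, from another feature set and run 35, gave similar levels of the abundant members and are a description only. PIF4 was at 59.1 to 64.62 RPKM in them and PIF5 at 51.82 to 58.78. ATHB2 was at 4.47 to 5.87 RPKM and HFR1 at 2.73 to 3.65, the latter above both biological libraries of Col-0.

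The members were set beside clock genes across accessions, since the clock gates PIF4 and PIF5 transcription. CCA1 and LHY are MYB factors that peak around dawn, and ELF3, ELF4 and LUX form the evening complex. PIF5 was high where CCA1 was high and where ELF4 was low. In Kn-0, with PIF5 at 78.5 ± 2.4 RPKM (SD, n = 2), CCA1 was at 35.8 ± 0.745 and ELF4 at 3.05 ± 1.4. In Zu-0, with PIF5 at 24.9 ± 0.452, CCA1 was at 1.58 ± 0.641 and ELF4 at 134 ± 4.87. Ws-0 and Rsch-4 were also low in CCA1 and high in ELF4, with CCA1 at 2.51 ± 1.12 and 4.04 ± 0.0355 and ELF4 at 45.5 ± 7.22 and 74.1 ± 20.5. Edi-0 and Wil-2 were the exceptions, with PIF5 at 73.4 ± 7.14 and 67.0 ± 5.97 while CCA1 was at 13.5 ± 0.213 and 11.4 ± 0.812.

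Over the 19 accession means on the log2 scale, 9 of 68 gene pairs had a Pearson correlation past the Benjamini-Hochberg threshold by permutation, and 5 had a Spearman correlation past it. The 5 were those of PIF5 with each clock gene. PIF5 and CCA1 had r = 0.89 and rho = 0.81, with permutation p-values of 1e-05, the smallest that 100000 permutations can give, and 3e-05 (adjusted 0.00017 and 0.00068). Without Zu-0 and Ws-0, the accessions farthest from the median of PIF5, r was 0.83. PIF5 and LHY had r = 0.81 and rho = 0.82 (permutation p = 1e-05 and 2e-05, adjusted 0.00017 and 0.00068), and r = 0.76 without those accessions. With the evening complex the sign was negative: ELF3 (r = -0.83, rho = -0.85), ELF4 (r = -0.83, rho = -0.80) and LUX (r = -0.79, rho = -0.75). Their adjusted permutation p-values were 0.00017, 0.00017 and 0.00068 for r, and r was -0.78, -0.74 and -0.75 without Zu-0 and Ws-0. These clock genes move together, so the 5 pairs are not separate results.

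Lane pairs moved with the same genes: the 6 accessions with a CCA1 mean under 6 RPKM were all in the last 2 pairs. Each pair holds only 3 or 4 accessions, too few for a correlation of its own, so values were centred on the lane pair means. Then r was 0.67 for PIF5 with CCA1 (permutation p = 0.00167, adjusted 0.0993), 0.46 with LHY, -0.60 with ELF3, -0.64 with ELF4 (p = 0.00292, adjusted 0.0993) and -0.56 with LUX. None of the 68 pairs passed the adjusted threshold after centring. The permutations, with and without centring, moved values freely across lane pairs and made no allowance for the centring, so their p-values may be too small. The hour at which each accession was harvested was not given, and its part in these correlations was not tested. Within accessions, the library with more CCA1 had more PIF5 in 7 of 19 accessions. Most replicates differed little in CCA1; No-0 differed by 2.64 on the log2 scale, and there PIF5 was at 64.9 and 37.5 RPKM and ELF4 at 10.1 and 71.6.

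PIF4 did not follow the clock genes in this way. Its correlation with CCA1 was r = 0.13 and rho = 0.03 (permutation p = 0.592 and 0.9, adjusted 0.962 and 0.988), and r was -0.39 without Wu-0 and Zu-0 and -0.37 after centring on lane pairs (adjusted p = 0.364). With ELF4 it was r = -0.05 and rho = 0.04. The difference between the correlations of PIF4 and of PIF5 with CCA1 was not tested. ATHB2 lay nearer to PIF5, with r = -0.70 against ELF4 (rho = -0.62, adjusted permutation p = 0.00669 and 0.0593) and r = 0.61 against CCA1 (rho = 0.58, adjusted 0.0473 and 0.0827). Without Zu-0 and No-0 these were r = -0.56 and 0.48, and centred on lane pairs -0.60 and 0.40 (adjusted permutation p = 0.125 and 0.364). The call with CCA1 ended for 11 of the 38 libraries left out singly and with quantile normalization (r = 0.60, adjusted permutation p = 0.0519). ATHB2 and PIF5 had r = 0.62 and rho = 0.41 (adjusted permutation p = 0.0474 and 0.43), which rested on Zu-0 and Ws-0, as r was 0.32 without them. That call ended for 15 of the 38 libraries left out singly, with quantile normalization (r = 0.62, adjusted permutation p = 0.0519) and centred on lane pairs (r = 0.46, 0.301). PIL1 and IAA29 had r = 0.60 and rho = 0.46 (adjusted permutation p = 0.0484 and 0.278). That relation rested on Tsu-0 and Bur-0, as r was 0.34 without them, and both genes were near the counting floor. Its call ended under each of the 6 other settings run for it, with r between 0.53 and 0.60 and adjusted permutation p-values from 0.0549 (without No-0) to 0.174 (centred on lane pairs), and for 24 of the 38 libraries left out singly. HFR1, XTR7 and YUC8 were in no pair past the threshold.

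**Figure D4:**
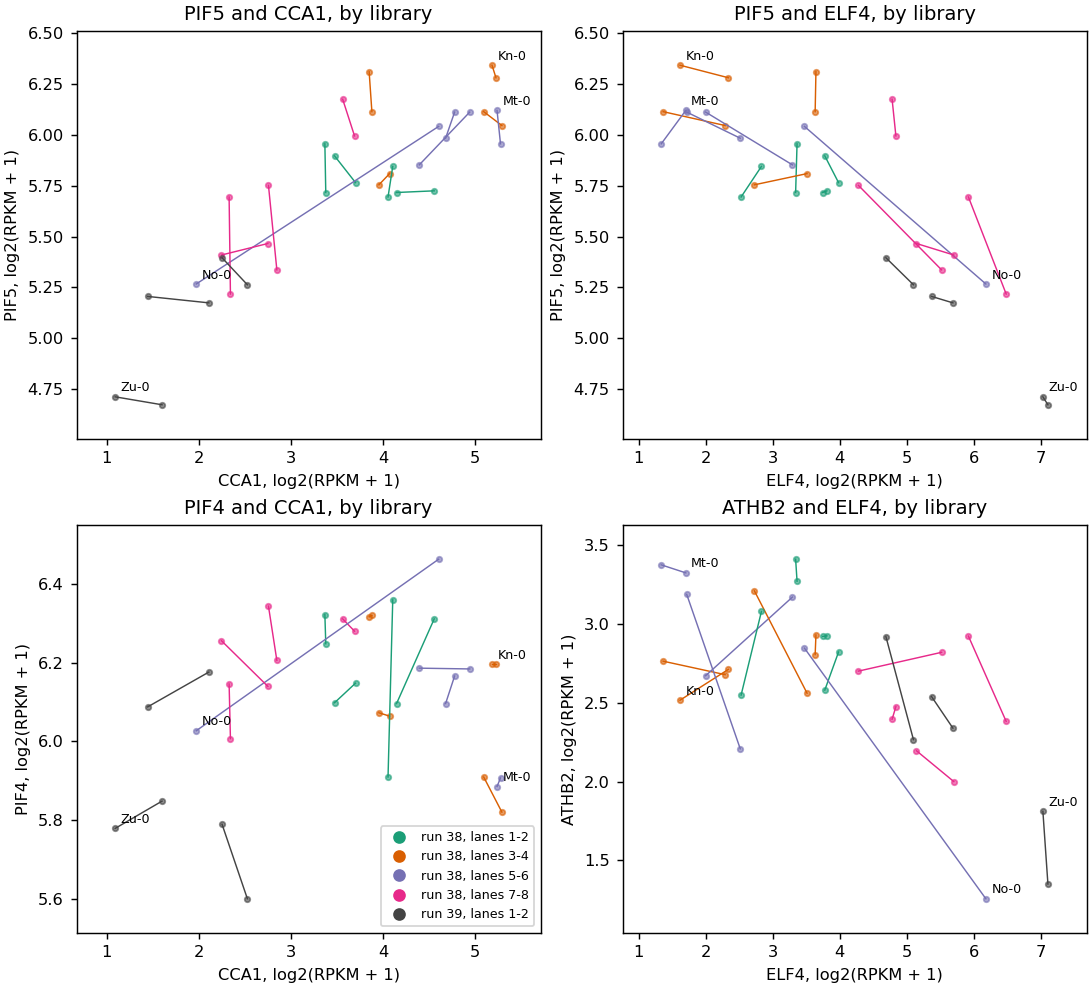
PIF5 against CCA1 and ELF4, PIF4 against CCA1, and ATHB2 against ELF4, on log2(RPKM + 1) axes, with each library as a point, the 2 libraries of an accession joined and lane pairs in colour. PIF5 climbs with CCA1 and falls with ELF4 from Zu-0 to Kn-0, the libraries of No-0 lie far apart along the same direction, and PIF4 shows no such slope.

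The genes whose accession means were most like each member were sought among 14492 tested genes with a mean log2(RPKM + 1) of at least 2, as a description with no test. For PIF5 they were ABCF5, an ABC-family protein (r = 0.95), JAC1, a J-domain protein of chloroplast movement (0.93), and NIA2, a nitrate reductase (0.93). PIF4 was most like EIL1, an ethylene-response transcription factor (0.85), AT4G10170 (0.81) and OFP16 (0.80). ATHB2 was most like NUDT6, a Nudix hydrolase (0.83), PMEPCRF (0.83) and HESO1, a uridylyltransferase of small RNAs (0.81). XTR7 was most like CCS, the copper chaperone of superoxide dismutase (0.77), ARAB-1 (0.74) and CSD2, a copper/zinc superoxide dismutase (0.71). For HFR1 they were AT2G40570 (0.75), AT5G61820 (0.71) and AT3G53170 (0.69), and for PIL1 GSL11 (0.82), OVA1 (0.78) and RID2 (0.77). For IAA29 they were AT5G15390 (0.70), AT3G06200 (0.70) and AT4G37240 (0.69), and for YUC8 AT4G10480 (0.83), AT4G02720 (0.82) and AT3G62930 (0.82). The search took the highest of 14492 values of r, so high values follow from the search itself.

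Other genes of the pathway were described by lists, and named where they passed the F test with the widest spans of their list. Of all genes tested 55.1% passed, and their median log2 span was 1.00. The counts of each list here and below are to be read beside that share, and no list was tested against it. Photoreceptors passed in 7 of 8 cases, with a median log2 span of 0.68. PHYB, the main phytochrome of shade perception, was at 23.4 ± 4.77 RPKM (SD, n = 2) in Oy-0 and 13.6 ± 0.293 in Zu-0. PHYD, its closest relative, ranged from 6.52 ± 0.142 in Bur-0 to 0.749 ± 0.146 in Kn-0. PHYC lay between 10.8 ± 1.7 in Tsu-0 and 6.25 ± 0.423 in Bur-0. PHYE lay between 14.6 ± 2.34 in Ler-0 and 7.1 ± 0.722 in Sf-2, and its call ended with a lane term (adjusted p = 0.06252, limma). PHYA, the far-red receptor, did not pass (adjusted p = 0.1765, limma).

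Among other PIFs and partner bHLH genes, 8 of 11 passed, with a median log2 span of 1.4. PRE1, a growth-promoting HLH protein that does not bind DNA, was at 40.2 ± 14.7 RPKM (SD, n = 2) in Tsu-0 and 7.42 ± 0.514 in Col-0. KDR, another such protein, was at 59.7 ± 6.42 in Kn-0 and 16.3 ± 0.935 in Wu-0. PIF8 was highest in Col-0 (16.3 ± 0.666) and lowest in Wu-0 (4.17 ± 0.217). PAR2, a shade-induced inhibitor of elongation, was at 29.3 ± 0.153 in Hi-0 and 8.74 ± 1.32 in Wu-0. Wu-0, with the lowest PIF4, was thus also the lowest accession for KDR, PIF8 and PAR2, but for none of the other genes of this list. Against Col-0, PIF8 and PAR2 were called lower in Wu-0, KDR was not called and PRE1 was called higher. PIF8 was also called lower in other accessions, Edi-0, Tsu-0 and Zu-0 among them.

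Of the COP1/SPA, HY5 and BBX genes, which act on light signalling through protein breakdown and transcription, 7 of 10 passed, with a median log2 span of 1.12. BBX25 had 59.9 ± 0.407 RPKM (SD, n = 2) in Ler-0 against 7.54 ± 2.18 in Ws-0. HYH, a relative of HY5, ranged from 29.4 ± 1.95 (Ler-0) to 4.33 ± 0.0522 (Zu-0), and SPA4 from 8.32 ± 0.518 (Ler-0) to 2.49 ± 0.858 (Ws-0). HY5, which promotes the light-grown form, was at 8.14 ± 1.43 in Hi-0 and 2.51 ± 0.0553 in Wu-0 (adjusted p = 0.03664). Its call ended for 11 libraries left out singly, at up to 0.08211, and with a lane term (0.3094). DELLA and brassinosteroid factors, which bind or work with PIF4, passed in 6 of 7 cases, with a median span of 1.19. GAI was at 32.7 ± 7.44 in Ws-0 and 12.3 ± 0.0212 in Edi-0, and RGL1 and RGL2 peaked in Can-0, at 20.2 ± 4.41 and 8.18 ± 1.21. BES1, a brassinosteroid-response factor, was at 97.0 ± 1.52 in Wil-2 and 47.6 ± 0.992 in Wu-0.

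Downstream genes were mixed. Of the other HD-Zip II and shade targets 3 of 7 passed, with a median log2 span of 0.9, and these were HAT1 (20.2 ± 1.87 RPKM in Edi-0, 7.73 ± 4.47 in No-0, SD, n = 2), HAT2 (21.4 ± 1.25 in Ler-0, 7.5 ± 1.43 in Bur-0) and HAT3 (17.9 ± 1.89 in Hi-0, 10.1 ± 0.155 in Kn-0). HAT2 was lowest in Bur-0, where their relative ATHB2 was at 9.14 ± 0.698. In auxin synthesis 2 of 6 genes tested of 10 listed passed, with a median span of 1.17. TAA1, an aminotransferase before the YUC step, was at 15.3 ± 6.78 in Ws-0 and 6.11 ± 0.459 in Po-0, and TAR2 at 23.8 ± 0.393 in Oy-0 and 7.36 ± 1.86 in Zu-0. YUC3, YUC5, YUC7 and YUC9, like YUC8, were too low to test. Of auxin response and transport genes, 10 of 13 tested of 14 listed passed, with a median span of 1.15. IAA5, an early auxin gene, was at 4.97 ± 1.15 in Ler-0 and 0.245 ± 0.346 in Rsch-4, IAA6 at 4.51 ± 0.386 in Po-0 and 0.337 ± 0.477 in Sf-2. SAUR20 (24.4 ± 6.76 in Tsu-0, 4.65 ± 2.72 in Ct-1) has near-identical neighbours among which reads may be split, so its value is uncertain. SAUR68 (4.07 ± 0.75 in Ler-0, 0.216 ± 0.305 in Can-0) lost its call for 5 single libraries and with a lane term (adjusted p = 0.08255, limma), and HAT3 for 2 single libraries.

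Other cell wall growth genes passed in 9 of 9 cases, with a median log2 span of 1.84, and clock genes in 10 of 10, with a median of 2.93. XTH22, a touch-responsive xyloglucan enzyme, was at 119 ± 43.2 RPKM (SD, n = 2) in Edi-0 and 6.72 ± 1.18 in Mt-0. XTH24 had 153 ± 24 in Ler-0 against 29.0 ± 5.27 in Can-0, and XTH33 at 11.8 ± 4.63 in Edi-0 and 0.305 ± 0.162 in Ct-1. XTH23 was at 4.6 ± 2.83 in Edi-0 and 0.101 ± 0.143 in Ler-0. XTR7 had a log2 span of 1.94, within the range of these relatives, and its highest accession, Wu-0, was the highest of none of the listed relatives. Among clock genes, LHY ranged from 14.1 ± 0.0167 in Kn-0 to 0.666 ± 0.59 in Ws-0 and 0.624 ± 0.111 in Zu-0, and PRR5, an evening repressor, from 63.0 ± 3.21 in Ws-0 to 5.95 ± 1.31 in Ler-0.

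**Figure D5:**
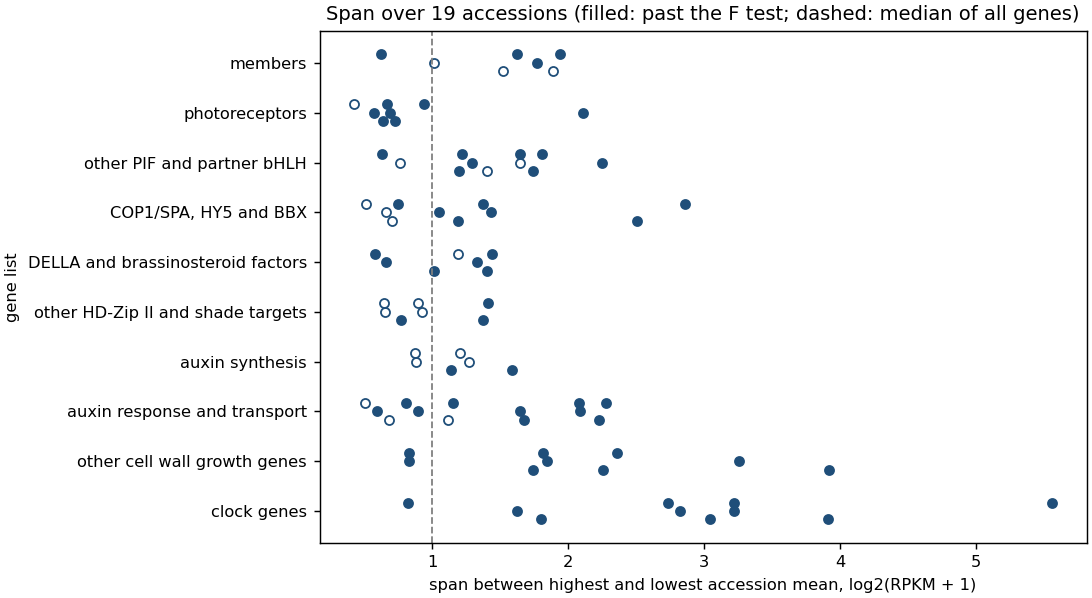
Span between the highest and lowest accession mean on the log2(RPKM + 1) scale for each tested gene of the member list and 9 pathway lists, filled where the gene passed the F test, with the median of all genes tested (1.00) as a dashed line. PIF4 is the leftmost filled point of the members at 0.62; clock genes reach 5.55 (ELF4).

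In Zu-0 and Ws-0, the accessions where PIF5 was called lower than in Col-0, other light signalling genes were called as well. These were picked after their values were seen, and the comparisons share the Col-0 libraries. Of all genes, 13.6% were called in Zu-0 and 12.3% in Ws-0, the largest shares of the 18 contrasts. Both accessions were on run 39 and Col-0 on run 38, so a difference between runs cannot be told apart. Whether light signalling genes were called more often than other genes was not tested. In Zu-0, CRY1, a blue light receptor, was at -0.66 (log2, SE 0.104, adjusted p = 8.077e-05, limma) and PHYB at -0.58 (SE 0.139, 0.005045). PIF7, a PIF of shade response, was at -0.80 (SE 0.198, 0.006904), whereas PIF1, which acts in seed germination, was at 0.55 (SE 0.166, 0.02689). SPA1, a partner of COP1, was at -0.79 in Zu-0 (SE 0.16, 0.001095) and -0.55 in Ws-0 (0.02381). CRY1 was at -0.49 in Ws-0 (SE 0.104, 0.002502). BBX25 was at -2.27 in Zu-0 and -2.32 in Ws-0 (SE 0.317, adjusted p = 1.625e-05 and 1.448e-05). The clock genes moved with them: CCA1 was at -2.73 and -2.30, and ELF4 at 4.39 and 2.85. Such calls were not limited to the accessions with a PIF5 call. BBX25 was also called lower in Rsch-4, Sf-2 and Tsu-0, and CRY1 in these and in Wu-0. PHYB was also called lower in Bur-0, Sf-2 and Wil-2, and PIF1 higher in Kn-0, No-0 and Tsu-0. CCA1 was also called lower and ELF4 higher in Rsch-4, Sf-2 and Wu-0. Of the green shoot markers, RCA was called in Zu-0, at -0.59 (SE 0.163, adjusted p = 0.01478), and none was called in Ws-0. None of the 7 genes tested of the other HD-Zip II and shade list, the 6 of auxin synthesis or the 13 of auxin response and transport was called in Zu-0 or Ws-0. Of the 9 other cell wall growth genes, XTH33 and XTH16 were called higher and EXPA1 lower in Zu-0. XTH33 was also called higher in Ws-0. Each of these cell wall genes was called in accessions without a PIF5 call as well.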

How the data were processed

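RNA of whole seedlings was measured in 38 biological libraries of 19 accessions, with 4 technical libraries of Col-0 used only for description. Values are RPKM deposited by the authors, which the file headers define per exon model and mapped read total; for aligner, counter and strand, not given in the sources used here, nothing was assumed, and the submitters' processing notes name TAIR 9 and TAIR 10. The code -1, in 6133 to 7304 features per library, was read as no value. RPKM depends on the length of the exon model and, outside Col-0, on how reads differing from the reference were aligned.

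Genes with values in all 38 libraries and at least 1 RPKM in at least 2 were tested, 20453 in all, on log2(RPKM + 1), a scale that understates changes of low genes. The fit (limma 3.58.1, R 4.3.3) estimated 1 mean for each accession with an intensity trend and without a block, had prior 4.79 and residual 19 degrees of freedom, and was adjusted by Benjamini-Hochberg. PIF4, PIF5 and ATHB2 reached 1 RPKM in all 38 libraries. HFR1, IAA29, XTR7 and PIL1 reached it in 29, 26, 17 and 2 libraries, so they pass this filter partly through the accessions in which they are high. Correlations used accession means and 100000 two-sided permutations, adjusted over 28 pairs of members and 40 pairs with CCA1, LHY, ELF3, ELF4 or LUX. The permutations were not restricted to lane pairs. Replicate 1 was on the first lane of its pair and replicate 2 on the second, except in Zu-0, where both were on the first. The values showed no common shift by replicate number. Libraries correlated at 0.982 to 0.991 across features between replicates, and no pair of libraries was identical.

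The members, gene lists, tests and alternatives were chosen with earlier results of these data known. All 8 members were named; from each list, up to 4 genes past the F test with the widest span; and the 3 genes most like each member. Alternatives were other pseudocounts, filters, scalings and trends, each library left out, a replicate block, centring on lane pairs and, added later, a lane term.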

Additional observations from a re-analysis of the deposited data

How the results depend on the processing

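The number of genes past the F test, 11274, ranged from 10617 to 11726 with single libraries left out. Members past it, 4, fell to 2 with no filter on low values, where the share of all genes also fell, to 35.6% of 29961. With single libraries left out, the fewest members passed without Bur-0 replicate 1, Mt-0 replicate 1 or Zu-0 replicate 1. The most passed without No-0 replicate 1 or 2. Member contrasts with Col-0, 4, were 8 without No-0 and 2 with a lane term added after seeing the data, and ranged from 1 (without Col-0 replicate 2) to 9 (without No-0 replicate 1). With the lane term PIF4 in Wu-0 (adjusted p = 0.2606) and PIF5 in Ws-0 (0.1657) lost their calls, as did the F tests of PHYE (0.06252), HY5 (0.3094) and SAUR68 (0.08255); PIF5 in Ws-0 also did with quantile normalization (0.05) and with no filter (0.06072). Calls within lane pairs, 3, were 5 as contrasts in the fit of all libraries and ranged from 2 to 4. Correlated pairs, 9, were 0 after centring on lane pair means and ranged from 6 to 10. PIF5 kept its F call under each alternative run for it, and no value past its threshold changed sign under the alternatives run. Correlations short of the threshold did change sign on centring, among them PIF4 with CCA1 (r = 0.13, then -0.37) and PIF5 with IAA29 (0.09, then -0.38). The cause of these changes was not tested. Scaling to a common upper quartile shifted a library by at most 0.073 on the log2 scale.

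Replicate numbers were shared across accessions and, except in Zu-0, went with the first or second lane of a pair. Deviations of same-numbered libraries correlated at -0.139 to 0.133 (median -0.00543), so no common shift by number was seen. With the replicate block 4 members and 11072 genes passed the F test and 4 member contrasts were called.

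Depth limits HFR1, PIL1, IAA29, XTR7 and YUC8, at an estimated 2.07 to 8.47 reads in a median library.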
